A study of Mus musculus with 6 samples.

Results

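The 10 genes Ccr7, Ccl17, Ccl22, Fscn1, Il4i1, Cacnb3, Socs2, Tmem123, Anxa3 and Samsn1 are commonly used to mark mature migratory dendritic cells. They were taken by symbol from the 26110 genes of the RNA-seq data, and all 10 were listed. All 10 also passed the minimum for testing, a mean normalized value of at least 10 over the 6 libraries, as did 17812 genes in all. Ccl17 passed only through the CX3CR1- libraries, since its mean in the CX3CR1+ libraries was under that minimum. RNA was sequenced in bulk from cells with high surface MHC class II (MHCII hi) that had been sorted from the muscularis externa (ME), the outer muscle layer, of the small bowel. The mice were untreated, on a C57BL/6 background, and carried 1 copy of the Cx3cr1 gene replaced by green fluorescent protein (genotype CX3CR1+/GFP), in both groups alike. Their age is not given in the sources used here, and the study worked with female mice. The groups were 3 libraries of MHCII hi CX3CR1- cells and 3 libraries of MHCII hi CX3CR1+ cells, and the comparison asks how the transcriptomes of these neighbouring populations differ. Tissue of 6 mice was pooled per group. Separate pools for the individual libraries are not mentioned, so the spread between libraries may be partly technical. The sample labels call both populations dendritic cells, whereas the study describes them as macrophages. It reports more RNA of the dendritic cell markers CD103 and Flt3 in CX3CR1- cells. By its flow cytometry most of these cells carried CD11b and very few CD11c or CD103, and by microscopy they stained for the macrophage marker IBA-1. The study regards admixed dendritic cells as very few and probably negligible.

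Dendritic cells that mature, after a microbial signal or spontaneously in healthy tissue, switch on the receptor CCR7. CCR7 guides them along the chemokines CCL19 and CCL21 into lymphatic vessels and on to the draining lymph node. On the way they make CCL17 and CCL22, which attract T cells through the receptor CCR4, and they rebuild their actin skeleton with the bundling protein fascin. The other genes of the group are found in the same mature cells but have more general roles, in amino acid breakdown, calcium channels, cytokine feedback and membrane binding.

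Both chemokine ligand genes and Fscn1 have a promoter sequence in RefSeq (GRCm38.p6). Those of Ccl17 and Ccl22 are shown because these genes differed most by adjusted p among the 10 genes and lie near each other in the genome. That of Fscn1 is printed beside them as a further example. Ccl22 occupies chr8:94745590-94751699 and Ccl17 chr8:94810453-94812036, both on the plus strand. The interval between them holds the pseudogene Gnb1-ps3 and the chemokine gene Cx3cl1, whose product fractalkine is the ligand of CX3CR1. Each line below gives bases upstream of the first annotated exon, 5′ to 3′ on the plus strand, for Ccl22 chr8:94745434-94745589, for Ccl17 chr8:94810203-94810452 and for Fscn1 chr5:142960105-142960342. Capitals mark a match to a searched motif.
Ccl22: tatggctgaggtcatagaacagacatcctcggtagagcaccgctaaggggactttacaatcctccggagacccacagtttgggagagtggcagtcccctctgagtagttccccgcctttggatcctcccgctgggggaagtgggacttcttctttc
Ccl17: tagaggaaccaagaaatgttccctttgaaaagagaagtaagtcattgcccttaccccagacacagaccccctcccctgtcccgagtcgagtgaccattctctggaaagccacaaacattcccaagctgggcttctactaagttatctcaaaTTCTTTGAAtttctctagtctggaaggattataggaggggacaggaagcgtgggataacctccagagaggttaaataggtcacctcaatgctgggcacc
Fscn1: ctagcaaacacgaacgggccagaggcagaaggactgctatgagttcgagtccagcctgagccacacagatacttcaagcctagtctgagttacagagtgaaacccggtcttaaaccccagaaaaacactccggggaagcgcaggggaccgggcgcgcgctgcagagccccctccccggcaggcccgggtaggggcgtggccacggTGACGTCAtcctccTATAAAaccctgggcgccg

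The capitals in the Ccl17 promoter are a match to the STAT motif TTCNNNGAA, at 99 to 91 bases before the start. Of 32851 mouse promoter windows with 250 bases upstream of the start, 7.02% hold that motif on either strand. In the Fscn1 promoter the first run of capitals is a match to the CRE motif TGACGTCA, present in 1.55% of windows, and the second a TATA motif TATAAA, present in 12.4%. These last motifs were picked after the sequences had been read. In the Ccl22 window no match was found to the kappaB, AP-1 (TGANTCA), STAT, interferon-stimulated response element (ISRE) or PU.1-IRF composite motifs, which occur in 7.25%, 6.75%, 7.02%, 2.98% and 2.30% of windows. The ISRE and PU.1-IRF motifs share most of their letters and can overlap. Windows were found for 7 of the 10 genes, and among those not printed Samsn1 alone had a match, to PU.1-IRF at 124 to 115 bases before its start. A match describes letters in a window and says nothing about binding.

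The approximate number of reads per library ranged from 5346381 to 17616761, so that 3 reads corresponded to a normalized value between 1.39 and 5.36. Mitochondrially encoded genes took 47.5 to 54.9% of the normalized total in the CX3CR1- libraries and 18.1 to 21.2% in the CX3CR1+ libraries, a difference in RNA composition whose part in the results below was not tested. Cx3cr1 itself, the gene behind the sort, was listed at 23.2, 18.9 and 28.5 in CX3CR1- replicates 1, 2 and 3 and at 371, 380 and 347 in CX3CR1+ replicates 1, 2 and 3. All libraries thus matched their labels. In the values that follow, libraries are always given in that order.

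Of the 10 genes, 7 were higher in CX3CR1- cells, 1 was lower, and 2 did not pass the test. Across all tested genes, 12.2% were called higher, 8.15% lower and 20.4% in either direction, by limma at a log2 fold change of at least 1 either way and an adjusted p of at most 0.05. The library values of both populations were fully separated for the 8 called genes. Among all tested genes, 20.3% were separated with higher values in CX3CR1- cells and 19.8% with lower values, 40.0% in all. The exact permutation test gave p = 0.1 for each of the 8 genes, and no smaller p can be reached with 3 libraries per group. The median log2 fold change of the 10 genes was 1.95 and that of all tested genes 0.00. Quantile normalization moved the median of all tested genes to -0.15 and equal totals without mitochondrial genes moved it to 0.17. In bulk RNA, fewer cells of a type and less RNA per cell cannot be told apart.

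**Figure D1:**
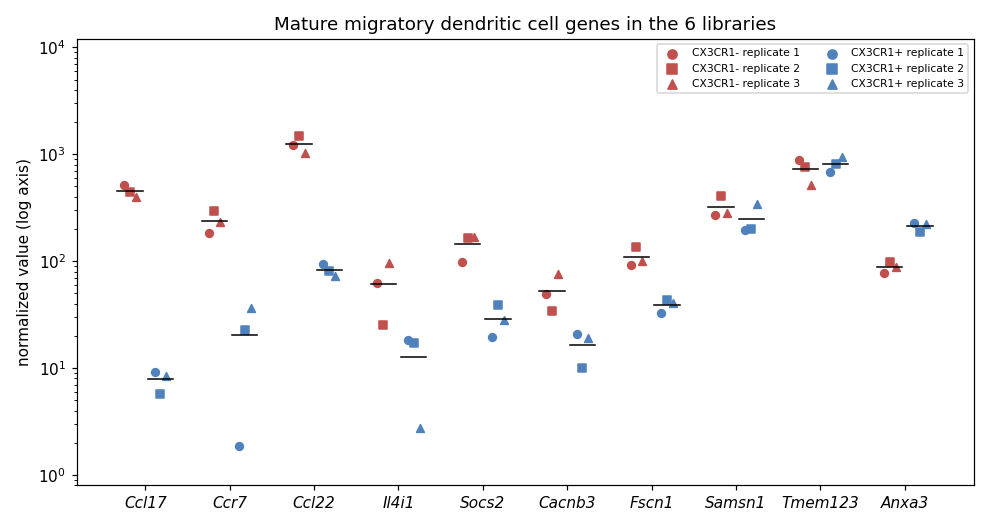
Normalized value (log axis) of each of the 10 genes in the 3 CX3CR1- and 3 CX3CR1+ libraries, 1 point per library with the group mean as a black line. Ccl17, Ccr7 and Ccl22 stand apart by more than 10-fold between group means, Samsn1 and Tmem123 overlap, and Anxa3 is the one gene whose CX3CR1+ libraries are all above the CX3CR1- libraries.

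Ccr7 (chr11:99144196-99155077, minus strand), the homing receptor, was listed at 183, 295 and 234 in CX3CR1- cells and at 1.85, 23.0 and 36.8 in CX3CR1+ cells. The CX3CR1- libraries lay within a narrow band, whereas the CX3CR1+ libraries spread widely, with replicate 1 close to the detection level at about 4 reads. Group means were 237 ± 56.3 and 20.5 ± 17.6 (SD, n = 3 each), an 11.6-fold difference. The log2 fold change was 4.09 (SE 0.79, limma adjusted p = 0.00388). Without CX3CR1+ replicate 1 it was 2.96, and without CX3CR1+ replicate 3 it was 4.82, and Ccr7 passed the test in both cases.

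The T cell attractant Ccl17 had the largest fold change of the group. It was listed at 511, 440 and 402 in CX3CR1- cells and at 9.25, 5.74 and 8.50 in CX3CR1+ cells, where the values rest on about 20, 7 and 6 reads. All CX3CR1- libraries were far above all CX3CR1+ libraries and varied little among themselves. The means of 451 ± 55.6 and 7.83 ± 1.85 (SD, n = 3 each) differed 57.6-fold, with a log2 fold change of 5.69 (SE 0.31, limma adjusted p = 2.84e-06).

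Ccl22, the second CCR4 ligand, was the most abundant of the 10 genes by value in CX3CR1- cells, at 1226, 1494 and 1020.2, against 93.3, 80.7 and 73.0 in CX3CR1+ cells. Unlike Ccl17, it was well above the detection level in every CX3CR1+ library. The means were 1247 ± 238 and 82.3 ± 10.2 (SD, n = 3 each), a 15.1-fold difference with a log2 fold change of 3.89 (SE 0.22, limma adjusted p = 3.56e-06). The gene that lies between both ligands, Cx3cl1, was listed at 13.6, 21.6 and 86.2 in CX3CR1- cells and at 11.01, 13.1 and 9.04 in CX3CR1+ cells. Its log2 fold change of 1.36 did not pass the test (limma adjusted p = 0.169), and the height of its CX3CR1- mean came from replicate 3.

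Fscn1, which encodes the actin-bundling protein fascin of dendrites and other protrusions, differed less. It was listed at 91.4, 136 and 101 in CX3CR1- cells and at 32.6, 43.0 and 40.5 in CX3CR1+ cells. The groups did not overlap, yet Fscn1 was clearly measured in both. The means of 110 ± 23.8 and 38.7 ± 5.41 (SD, n = 3 each) gave a 2.83-fold difference and a log2 fold change of 1.47 (SE 0.30, limma adjusted p = 0.00556).

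Il4i1 encodes a secreted oxidase that breaks down aromatic amino acids. It was listed at 62.0, 25.6 and 95.7 in CX3CR1- cells and at 18.5, 17.1 and 2.75 in CX3CR1+ cells, where replicate 3 lay under the value of 3 reads. The lowest CX3CR1- library was close to the highest CX3CR1+ library. The log2 fold change was 2.31 (SE 0.71, limma adjusted p = 0.0387), a 4.78-fold difference of the means 61.1 ± 35.1 and 12.8 ± 8.71 (SD, n = 3 each). This call is the least certain of the group. It was lost under quantile normalization (adjusted p = 0.0718), without the variance trend (0.0841), with library quality weights (0.0519), and without any one of CX3CR1- replicates 1 or 3 or CX3CR1+ replicates 2 or 3, with values between 1.54 and 2.67 in these last cases. In addition, 80.5% of the 31-base words in the transcripts of Il4i1 also occur in another gene, most of them (78.9%) in Tbc1d17 on the other strand. The library kit does not mark strand, so reads of these genes are hard to separate, and Tbc1d17 was listed at 106, 49.5 and 73.2 in CX3CR1- cells and at 99.6, 155 and 78.4 in CX3CR1+ cells.

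For Cacnb3, which encodes a beta subunit of voltage-gated calcium channels, the values were 49.5, 34.3 and 75.5 in CX3CR1- cells against 21.01, 9.94 and 18.9 in CX3CR1+ cells. The groups did not overlap, but levels were low in both. The means of 53.1 ± 20.8 and 16.6 ± 5.89 (SD, n = 3 each) differed 3.19-fold, with a log2 fold change of 1.61 (SE 0.46, limma adjusted p = 0.0273). Quantile normalization ended the call (1.27, adjusted p = 0.0694), and so did leaving out CX3CR1- replicate 1 or 3 or CX3CR1+ replicate 2 or 3, at log2 fold changes of 1.30 to 1.73 (adjusted p of 0.0589 to 0.108).

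Socs2, a feedback inhibitor of cytokine receptors that is switched on by STAT5, was listed at 98.1, 166 and 169 in CX3CR1- cells and at 19.7, 38.9 and 28.4 in CX3CR1+ cells. Even the lowest CX3CR1- library was well above the highest CX3CR1+ library. The means of 145 ± 40.3 and 29.0 ± 9.62 (SD, n = 3 each) differed 4.99-fold, with a log2 fold change of 2.29 (SE 0.36, limma adjusted p = 0.00121). Of the 31-base words of its coding transcripts, 18.8% also occur in another gene, mainly the gene model Gm9847, which was not analysed here.

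Anxa3, an annexin that binds membrane phospholipids in the presence of calcium, ran the other way. It was listed at 77.1, 98.6 and 88.7 in CX3CR1- cells and at 228, 188 and 221 in CX3CR1+ cells. Both groups were tight and far apart. The mean was 2.41-fold higher in CX3CR1+ cells (213 ± 21.6 against 88.2 ± 10.8, SD, n = 3 each), and the log2 fold change was -1.26 (SE 0.24, limma adjusted p = 0.00335).

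Tmem123, which encodes the transmembrane glycoprotein porimin, was abundant in both populations, at 888, 764 and 512 in CX3CR1- cells and at 687, 815 and 941 in CX3CR1+ cells. The ranges overlapped broadly. Its log2 fold change was -0.20 with a 95% interval from -0.71 to 0.31 (limma adjusted p = 0.586), and its sign turned with quantile normalization (0.093) and without CX3CR1- replicate 3 (0.029).

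Samsn1, an adaptor protein of blood cells that restrains B cell activation, was listed at 272, 408 and 285 in CX3CR1- cells and at 195, 200.3 and 342 in CX3CR1+ cells. CX3CR1+ replicate 3 lay within the CX3CR1- range. The log2 fold change of 0.41 had a 95% interval from -0.20 to 1.03 (limma adjusted p = 0.327), so a difference of up to about that upper bound remains within the data.

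**Figure D2:**
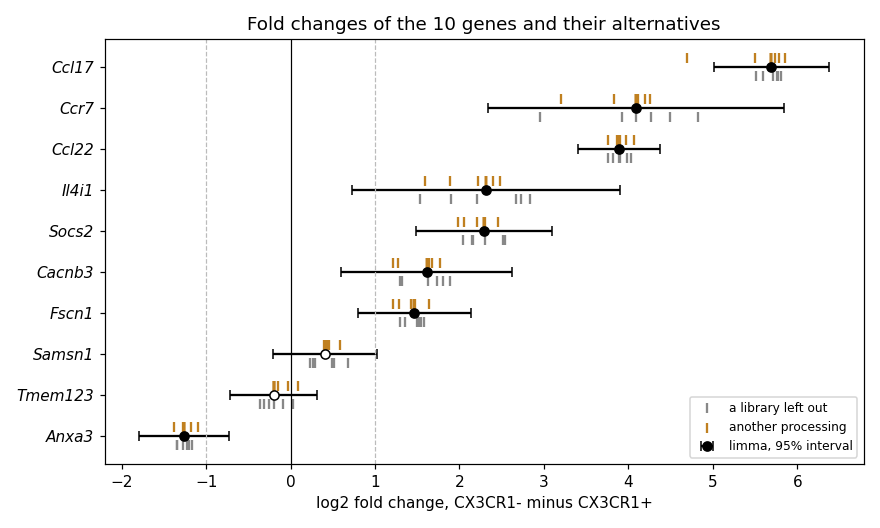
Log2 fold change, CX3CR1- minus CX3CR1+, of the 10 genes with the 95% interval of the limma fit. Filled points passed the test, grey ticks show the value with a library left out, orange ticks the value under another processing, and dashed lines mark a log2 fold change of 1 either way. Ccl17 and Ccl22 have narrow intervals, Ccr7 and Il4i1 wide ones.

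The genes also differed in how they varied within a population. The coefficient of variation over the 3 CX3CR1- libraries was lowest for Anxa3 (12.2%) and Ccl17 (12.3%) and highest for Il4i1 (57.4%) and Cacnb3 (39.2%). In the CX3CR1+ libraries it ran from 10.2% for Anxa3 to 85.7% for Ccr7. No single CX3CR1- library was high for all genes. Replicate 2 was highest for 5 genes (Ccr7, Ccl22, Fscn1, Anxa3 and Samsn1), replicate 3 for 3 (Il4i1, Cacnb3 and Socs2) and replicate 1 for 2 (Ccl17 and Tmem123).

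To compare the genes with each other, values were divided by the length of the principal transcript. Per kilobase, Ccl17 led in CX3CR1- cells at 878 ± 108, followed by Ccl22 at 563 ± 107 and Tmem123 at 248 ± 65.9 (SD, n = 3 each). Ccl17 and Ccl22 did not overlap in their library values, nor did Ccl22 and Tmem123. Tmem123, Samsn1 (170 ± 39.6 per kilobase) and Ccr7 (120 ± 28.4) overlapped each with the next, and a gap separated Ccr7 from Socs2 at 66.5 ± 18.5. Socs2, Anxa3, Fscn1, Il4i1 and Cacnb3 formed a run from 66.5 down to 21.4 per kilobase in which each gene overlapped with the next. The order was different in CX3CR1+ cells. There Tmem123 was first at 280.1 ± 43.7 per kilobase, Anxa3 (133 ± 13.6) and Samsn1 (130.1 ± 44.2) followed without separation, and Ccl22 came next at 37.1 ± 4.62. The other 6 genes, Ccl17 among them, lay between 15.2 and 6.23 per kilobase and overlapped each with the next. Among the tested protein-coding genes, the level per kilobase of Ccl17 was at percentile 97.8 in CX3CR1- cells and 36.1 in CX3CR1+ cells. For Ccr7 these percentiles were 83.5 and 28.1, and for Tmem123 92.6 and 92.3.

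Markers of dendritic cells in general also differed between the populations, so the 10 genes were set beside Zbtb46, a transcription factor of conventional dendritic cells. Zbtb46 was listed at 306, 369 and 323 in CX3CR1- cells and at 43.6, 41.2 and 46.8 in CX3CR1+ cells (log2 fold change 2.89, SE 0.24, limma adjusted p = 2.02e-05). Relative to Zbtb46 of the same library, Ccl17 stood at 1.37 ± 0.263 in CX3CR1- cells and at 0.178 ± 0.0366 in CX3CR1+ cells, and Ccl22 at 3.74 ± 0.501 and 1.89 ± 0.296 (SD, n = 3 each). Both chemokines thus remained higher in CX3CR1- cells on this scale, with no overlap. Ccr7 did not, at 0.708 ± 0.103 and 0.462 ± 0.381, since CX3CR1+ replicates 2 and 3 reached 0.557 and 0.788 and overlapped with the CX3CR1- range. Socs2 and Il4i1 overlapped as well. Fscn1 was lower on this scale, at 0.327 ± 0.0378 relative to Zbtb46 in CX3CR1- cells and 0.885 ± 0.148 in CX3CR1+ cells. So was Cacnb3, at 0.163 ± 0.0705 and 0.376 ± 0.123. Tmem123, Anxa3 and Samsn1 were likewise lower relative to Zbtb46 in every CX3CR1- library. A gene with a smaller fold change than Zbtb46 drops on this scale by construction, so the ratios restate the fold changes. Log2 fold changes of the 16 tested conventional dendritic cell markers ran from -0.95 to 8.32, and another divisor would give other ratios. This comparison was not among the planned ones.

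**Figure D3:**
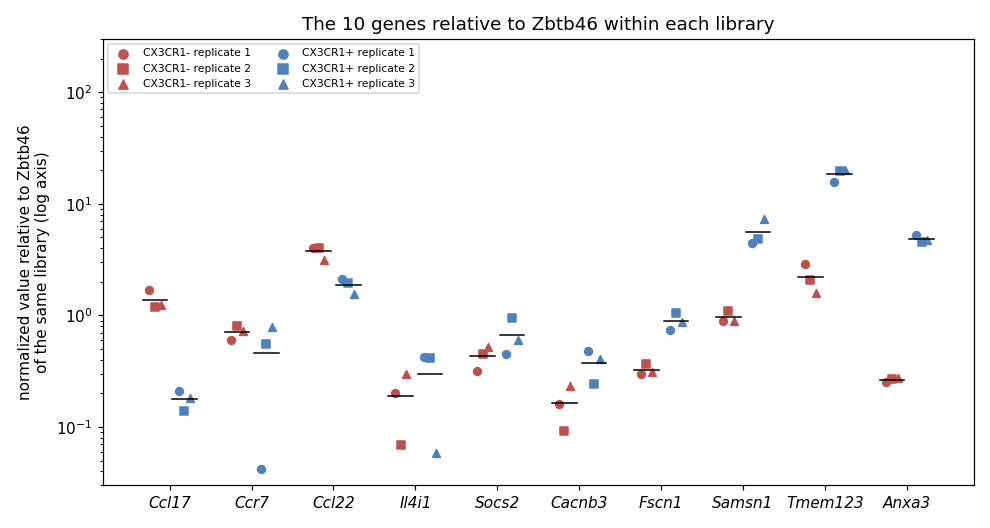
Normalized value of each gene divided by that of Zbtb46 in the same library (log axis), 1 point per library with the group mean as a black line. Ccl17 and Ccl22 are higher in CX3CR1- libraries, Ccr7, Il4i1 and Socs2 overlap, and Cacnb3, Fscn1, Samsn1, Tmem123 and Anxa3 are lower.

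Markers of other cell types were also measured. The study's flow cytometry of irradiated chimeras gated living CD45+ cells, a gate that would leave out epithelial cells and fibroblasts. For the sort before sequencing, its methods name MHC class II and CX3CR1 and refer to an antibody list that includes CD45. Its discussion calls the CX3CR1- population CD45+. A CD45 gate in that sort is not spelled out. Of 16 tested conventional dendritic cell markers 13 were higher, with a summed value of 8780 to 8972 against 2648 to 2955 in CX3CR1+ cells. Of 19 macrophage markers 16 were lower and 2 higher (sum 15965 to 19548 against 87563 to 98450). The lower ones include Cx3cr1, the gene behind the sort. Of all tested genes 12.2% were called higher and 8.15% lower. B and plasma cell markers were higher for 12 of 14 (sum 20558 to 56361 against 1738 to 2120.0), epithelial markers for 14 of 14 (20178 to 37150.4 against 74.0 to 92.6) and fibroblast markers for 10 of 10 (6221 to 17450.5 against 341 to 562). B cells also use CCR7. The summed B and plasma cell markers were lowest in CX3CR1- replicate 1 and highest in replicate 2, in the same order of libraries as Ccr7. The part of B cells in the Ccr7 level of the CX3CR1- libraries was not tested. Of 18 listed T and NK cell markers only 7 were tested, 2 of them higher and 1, Cd4 (-2.30), lower. The sum of the list was 427 to 796 in CX3CR1- and 716 to 850 in CX3CR1+ cells. With so few genes tested, the list says little about T cell content. Cd3e was at 1.99, 16.8 and 33.7 in CX3CR1- cells and at or under 2.55 in CX3CR1+ cells. ILC3 and lymphoid tissue inducer markers were higher for 4 of 4 tested genes (198 to 277 against 20.3 to 43.8), endothelial markers for 6 of 8 with 1 lower (900 to 1214 against 418 to 650), neuron and glia markers for 3 of 8 (185 to 746 against 112 to 165), mesothelial markers for 1 of 5 (116 to 370 against 70.9 to 101) and smooth muscle markers for 1 of 8 (1000 to 2814 against 2024 to 2815). Of 2 tested granulocyte and mast cell markers 1 was higher and 1 lower. Many higher markers had a CX3CR1+ mean under 10 and were tested only through their CX3CR1- libraries, so they could hardly be called lower. This held for 11 of 14 epithelial, 6 of 12 B and plasma cell, 3 of 13 conventional dendritic cell and 2 of 10 fibroblast markers. It also held for 3 of 4 ILC3, 4 of 6 endothelial, 2 of 2 T and NK cell and 1 of 3 neuron and glia markers.

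A further list of 58 genes reported in mature dendritic cells did not move in one direction. Of its 57 listed genes 54 were tested, 18 of them were higher in CX3CR1- cells, 15 were lower and 21 did not pass the test. Of all tested genes 12.2% were called higher and 8.15% lower. The median log2 fold change of the list was 0.72. The genes higher in CX3CR1- cells with the smallest adjusted p were Aldh1a2, the retinal dehydrogenase that makes retinoic acid, the protease inhibitors Serpinb6b and Serpinb9, and the adaptor Stap2. Aldh1a2 was listed at 989, 941 and 710.02 against 44.9, 36.9 and 45.3 (log2 fold change 4.34, limma adjusted p = 2.81e-06). Serpinb9 differed by 2.15 on the log2 scale. Serpinb6b was listed at 232, 134 and 256 against 11.2, 7.46 and 1.43, and Stap2 at 244, 51.9 and 68.8 against 1.85, 1.64 and 2.83. The values of Stap2 in CX3CR1+ replicates 2 and 3 and of Serpinb6b in replicate 3 lay under 3 reads, so their log2 fold changes are not exact. Of the 18 genes called higher, 9 had a CX3CR1+ mean under the minimum of 10 and were tested only through their CX3CR1- libraries.

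Other genes of the same list were lower in CX3CR1- cells. Cd83, the surface marker that gives mature dendritic cells one of their common definitions, was listed at 3169.9, 4672 and 3973 in CX3CR1- cells and at 12892, 16591 and 14327 in CX3CR1+ cells (log2 fold change -1.90, limma adjusted p = 3.37e-05). The chemokine Cxcl16 (-2.56), the actin-linked protein Marcks (-1.64) and Zmynd15 (-4.41) completed the lower genes with the smallest adjusted p. The costimulatory molecule gene Cd86 (-1.35) and the receptor gene Cd40 (-1.19), named after their values were seen, were lower too, while Cd80 (-0.30, adjusted p = 0.388) did not pass the test. Under quantile normalization Cd86 was at -0.95, under the fold threshold. Cd274 (0.38) and Relb (-0.62) did not pass the test either, and Traf1 (1.04) and Cd200 (3.25) were higher.

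**Figure D4:**
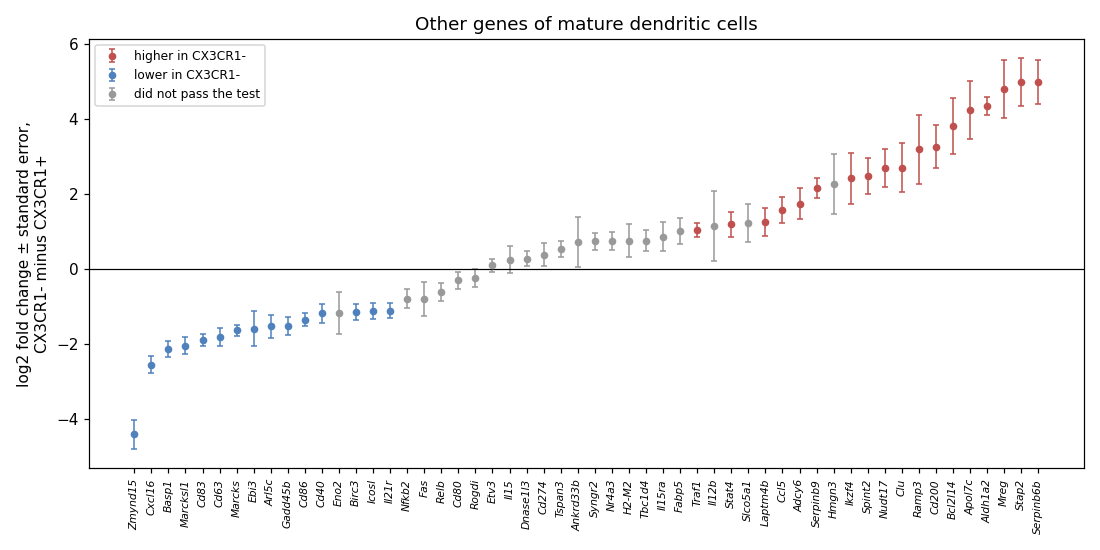
Log2 fold change, CX3CR1- minus CX3CR1+, with its standard error for the 54 tested genes of a further list of mature dendritic cell genes, ordered by value. The 18 higher genes (red) and 15 lower genes (blue) fall on both sides of 0, from Zmynd15 at -4.41 to Serpinb6b at 4.99, a value that rests on CX3CR1+ libraries near the 3-read level.

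Partners of Ccr7 and of the CCR4 ligands were measured in part. Of 17 listed genes of this axis 13 were tested, 6 were higher and 3 lower in CX3CR1- cells. Of all tested genes 12.2% were called higher and 8.15% lower. Ackr4, the scavenging receptor for CCL19 and CCL21, was higher by 2.86 on the log2 scale and Ccr2, a receptor of monocytes, by 1.23, a call that was lost without CX3CR1- replicate 2. The peptidase Dpp4, which trims CCL22, was higher by 3.88, the receptor Gpr35 by 2.88 and the sphingosine receptor S1pr3 by 2.61. Ccr6 was listed at 34.7, 43.2 and 14.2 in CX3CR1- cells and at 0 in every CX3CR1+ library, at least 7.22-fold higher against the value of 3 reads. The chemerin receptor Cmklr1 (-2.07) and Cxcr4 (-1.41) were lower, and so was Cx3cr1 (-3.92), the gene behind the sort. Ccr4, the receptor for both ligands, was at or near the detection level throughout, at 1.63, 5.60 and 1.56 in CX3CR1- and 0.756, 4.02 and 3.32 in CX3CR1+ cells. Ccl19, a ligand of CCR7, was listed at 8.89, 20.2 and 0 in CX3CR1- cells and at 1.90, 0 and 0 in CX3CR1+ cells.

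Genes of CCR7 signalling and of cell migration in general were counted next. Of 30 tested genes of signalling and movement 1 was called higher and 3 lower, beside 12.2% and 8.15% of all tested genes. The library values were separated for 5 higher and 9 lower genes of the list, beside 20.3% and 19.8% of all tested genes, with a median log2 fold change of 0.03. The tetraspanin gene Cd37 was higher (1.04, limma adjusted p = 0.0283), but not without the variance trend, with library quality weights, without CX3CR1- replicate 2 or without any one of the CX3CR1+ libraries. Sirpa (-2.11), Swap70 (-1.28) and Pik3cg (-1.20) were lower, of which Swap70 missed the fold threshold under quantile normalization (-0.99). Sirpa, an inhibitory receptor rich in macrophages, had the smallest adjusted p of the list.

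Among the relatives of Socs2, 3 of 7 tested genes were higher in CX3CR1- cells, beside 12.2% of all tested genes. Cish, another STAT5 target of the family, was listed at 124, 284 and 175 in CX3CR1- cells and at 37.8, 64.5 and 65.8 in CX3CR1+ cells (log2 fold change 1.74, SE 0.36, limma adjusted p = 0.00593). Socs6 was higher by 1.22, a call that was lost without CX3CR1- replicate 1 or 2 or CX3CR1+ replicate 1 or 3, while Socs3 (-0.93) fell short of the fold threshold in the other direction, which it passed without CX3CR1+ replicate 1 or without CX3CR1- replicate 3. Of 16 genes for the GM-CSF, TSLP and IL-4 receptors and their kinases and STATs, 2 were higher, Jak2 (1.55) and Il7r (1.47). Il4ra (-1.23) and Il13ra1 (-1.04) were the 2 lower genes. Of all tested genes 12.2% were called higher and 8.15% lower, so the counts of this list were close to those of all genes. Il4ra missed the fold threshold under quantile normalization (-0.95) and without CX3CR1- replicate 2. Il13ra1 missed it with equal totals without mitochondrial genes (-0.86). It kept its call with no library left out other than CX3CR1- replicate 2.

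Anxa3 was set beside the other annexins. Of 10 tested annexin genes 5 were higher in CX3CR1- cells and Anxa3 was the 1 called lower, beside 12.2% and 8.15% of all tested genes. The number called lower stayed 1 under each of the 16 alternatives, while the number called higher ranged from 5 to 7. Anxa2 was listed at 1122, 1138 and 888 in CX3CR1- cells against 42.1, 30.5 and 42.1 in CX3CR1+ cells (log2 fold change 4.75), Anxa1 differed by 3.81 and Anxa4 by 2.04. Anxa13, an intestinal epithelial annexin, was at 311, 156 and 199 in CX3CR1- cells and at 0 in every CX3CR1+ library, at least 52.2-fold higher. The summed epithelial markers given above moved in the same direction as these annexins, and their part was not tested.

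Similarly, Fscn1 was 1 of 6 higher genes among 11 tested actin bundlers and linkers, beside 12.2% of all tested genes. The genes with the smallest adjusted p were Pls1, the plastin of intestinal microvilli, at 2128, 1337 and 886 against 0.406, 0.721 and 1.24 (at least 341-fold higher), Ezr (log2 fold change 2.20), Espn (3.46) and Actn1 (2.85). All of them exceeded Fscn1 in fold change, and Pls1, Ezr and Espn are also genes of the epithelial brush border. The leukocyte plastin Lcp1 was lower by this test (-1.07), a call that was lost under quantile normalization and with equal totals without mitochondrial genes, and also without CX3CR1- replicate 1 or CX3CR1+ replicate 2 or 3.

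Cacnb3 was 1 of 7 higher genes among 15 tested calcium channel subunits. Of all tested genes 12.2% were called higher and 8.15% lower, the shares to set beside this list and those below. The others with the smallest adjusted p were Cacna1g (4.77), Cacna1e (1.49), Cacna2d1 (2.68) and Cacna1i (at least 9.17-fold higher, at 0 in every CX3CR1+ library). The count of higher genes was 5 under quantile normalization. Il4i1 was 1 of 4 higher genes among 14 of amino acid breakdown and the aryl hydrocarbon receptor, beside Arg2 (3.59), Kynu (2.12) and Ido1, the tryptophan-degrading enzyme, at 35.5, 40.6 and 22.2 against 0, 1.59 and 0 (at least 7.72-fold higher). Slc3a2, the heavy chain of amino acid transporters, was lower (-1.58). Neither Samsn1 nor its relatives Sash1 and Sash3 passed the test, with log2 fold changes of 0.41, -0.60 and -0.06 and limma adjusted p of 0.327, 0.0515 and 0.915.

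**Figure D5:**
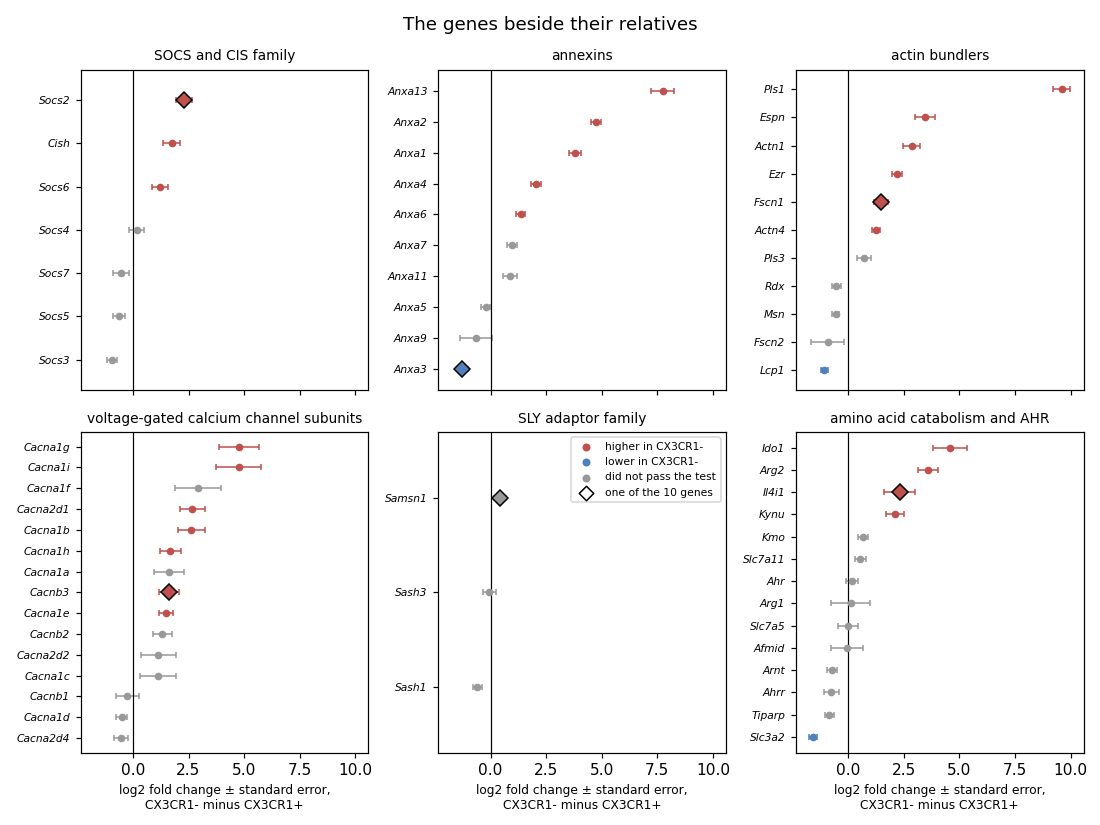
Log2 fold change, CX3CR1- minus CX3CR1+, with its standard error for the tested relatives of Socs2, Anxa3, Fscn1, Cacnb3, Samsn1 and Il4i1, with these genes drawn as diamonds. Socs2 has the highest value in its family (2.29) and Anxa3 the lowest (-1.26), while Fscn1, Cacnb3 and Il4i1 lie within the range of their relatives.

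Calls among transcription factors that act in dendritic cell maturation went both ways, but more of the list leaned lower. Of 21 tested NF-kB, interferon regulatory and related factors, 4 were called higher and 3 lower in CX3CR1- cells. The median log2 fold change of the list was -0.62. Library values were separated for 5 genes with higher and 13 genes with lower values in CX3CR1- cells. Among all tested genes, 20.3% and 19.8% were separated in these directions. Of all tested genes 12.2% were called higher and 8.15% lower. Irf4, which is needed for migratory dendritic cells of the gut, was listed at 858, 931 and 919.8 against 262, 345 and 266 (log2 fold change 1.64, limma adjusted p = 0.000154), and Spib and Zbtb46 were higher by 2.50 and 2.89. The summed B and plasma cell markers given above were also higher in CX3CR1- cells. Their part in the values of Irf4 and Spib was not tested. Klf4 also passed, with a value only just above the fold threshold, and fell below it without CX3CR1- replicate 2 or CX3CR1+ replicate 3. Spi1 (-1.24), Id2 (-1.81) and Batf (-1.33) were lower. Spi1 missed the fold threshold under quantile normalization (-0.96), and Batf lost its call without CX3CR1- replicate 1 or CX3CR1+ replicate 2 or 3. Relb, a factor of mature dendritic cells, was at 229, 164 and 175 in CX3CR1- cells and at 245, 287 and 339.5 in CX3CR1+ cells. Its difference of -0.62 on the log2 scale did not pass the test (limma adjusted p = 0.0836).

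Across the 6 libraries, the 5 genes whose log2 values were most like those of Ccr7 were Gm38235, Ercc6, Wnt11, Slc2a6 and Prr15l, with Pearson r from 0.987 to 0.995 among 10184 genes with a mean of at least 50. Wnt11, a secreted Wnt ligand, was listed at 196, 283 and 241 in CX3CR1- cells and at 2.71, 40.5 and 41.5 in CX3CR1+ cells. Slc2a6, a sugar transporter of myeloid cells, was at 201, 248 and 229 against 37.5, 74.5 and 86.9. With 6 libraries in 2 separate groups, such values describe the order and size of library values only.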

How the data were processed

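Bulk RNA-seq libraries, 3 of CX3CR1- and 3 of CX3CR1+ cells, were grouped by the sample titles. Replicates are numbered in accession order and are names only. The authors sequenced 75 bp single reads from TruSeq libraries, pseudoaligned them with Kallisto (mm10, GENCODE release M16), summed transcripts per gene with tximport and normalized with DESeq2. The deposited values are normalized signal, not whole reads (42.6 to 44.7% of values above 0 were whole multiples of a library's smallest step, within 0.01), so no count test was run. That step gave the approximate reads per library, and a floor of 3 reads served for folds given as "at least", computed as the CX3CR1- mean over the highest 3-read value of the CX3CR1+ libraries. Such floors and read numbers cover counting error only.

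Genes with a mean of 10 or more were tested on log2(value + 1) by lmFit and eBayes of limma (version 3.58.1, R version 4.3.3), two-sided and with a variance trend. P-values were adjusted by Benjamini-Hochberg over the 17812 genes tested. Fold changes are on that scale, which understates the change of low genes. Some genes called higher had a CX3CR1+ mean under 10 and were tested only through their CX3CR1- libraries. Among relatives of the 10 genes this held for 3 of 7 calcium channel, 2 of 6 actin, 1 of 5 annexin and 1 of 4 amino acid genes. Calls required a log2 fold change of 1 or more in either direction with an adjusted p not above 0.05. The fit was tested on simulated data with the same variance setting for all genes and no difference in RNA composition. Those settings are simpler than these data, so the simulation says nothing about individual calls. Exact permutation tests over libraries stand beside it. The 10 genes and all lists were chosen with earlier results of these data known, so counts over lists are descriptions. Named are the 10 genes, every gene of the CCR7 and CCR4 axis that bears on a value, up to 4 genes per list and direction with the smallest adjusted p, the 5 nearest patterns to Ccr7 and the genes between Ccl22 and Ccl17. Genes named outside that rule after their values were seen are Cd80, Cd86, Cd40, Cd274, Traf1, Cd200, Socs3, Relb, Cd3e and Tbc1d17.

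Positions, transcript lengths (median of APPRIS principal transcripts) and 31-base words shared between genes came from GENCODE release M21 for GRCm38, promoters from RefSeq. Protein sequences were not used here. The alternatives were pseudocounts of 0.5 and 10, a filter at 50 or none, quantile normalization, rescaling by the median of ratios, equal totals without mitochondrial genes, no variance trend, library quality weights, a replicate block and leaving out each library. Plots were drawn with matplotlib 3.10.9.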

Additional observations from a re-analysis of the deposited data

How the results depend on the processing

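Each result was recomputed under 16 alternatives, of which 6 left out a library. Rescaling by the median of ratios returned the main values, so it was no separate check. Ccr7, Ccl17, Ccl22, Fscn1, Socs2 and Anxa3 passed the test in the same direction under all of them, and Samsn1 passed in none. The log2 fold change of Il4i1 was 1.89 under quantile normalization (adjusted p = 0.0718), 2.31 without the variance trend (0.0841) and 2.22 with library quality weights (0.0519), none of which passed, and it ran from 1.54 to 2.83 with a library left out. That of Cacnb3 was 1.27 under quantile normalization, which did not pass, and 1.30 to 1.88 with a library left out. Neither was tested at a mean of at least 50, since both are below it. The value of Tmem123 was -0.20 as reported, 0.093 under quantile normalization and -0.37 to 0.029 with a library left out. The number of the 10 genes called higher ranged from 5 to 7 and the number called lower was always 1. Their median log2 fold change was 1.44 at a pseudocount of 10, whose larger constant shrinks the fold of low genes, and 1.63 to 2.03 with a library left out. Of the further mature dendritic cell genes, 11 were called higher at a mean of at least 50, where fewer genes were tested, 15 under quantile normalization and 13 to 18 with a library left out. The cause of the changes under quantile normalization was not tested.

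Library numbers fall into 3 adjacent pairs, but neither labels nor study say that they pair the samples. Deviations from the group means correlated by 0.10, 0.04 and 0.01 within the pairs, and not every library correlated best with its own partner. With the replicate block, Il4i1 (adjusted p = 0.0481) and Cacnb3 (0.0231) still passed, and the count of called genes among the 10 stayed 8.

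With 3 libraries per group no exact permutation p under 0.1 is possible, and CX3CR1+ values of Ccl17, Ccr7 and Il4i1 rest on as few as 6, 4 and 2 reads.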
